A study of Mus musculus with 96 samples.

Results

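The mature miRNAs of hematopoietic cells (HCs) were compared between hearts at day 14 (D14) after myocardial infarction and hearts without infarction (D0). Of the 96 small RNA libraries of the series, the 8 libraries labelled as HCs on these days were taken, and any with under 100000 counts on mature miRNAs was left out. D0 replicate 3 held 18286 counts and was dropped, which left 3 D0 and 4 D14 libraries. Of 1978 mature miRNAs listed, 1273 had a count in these 7 libraries, and 635 passed the filter on low counts and were tested.

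Beside HCs, the series profiled fibroblasts (FBs), endothelial cells (ECs) and cardiomyocytes (CMs), each on 6 days from D0 to D28. All animals were male C57Bl/6J mice aged 12 to 14 weeks, and the infarct was made by tying off the left anterior descending coronary artery for good. D0 hearts came from control mice that had no infarction, so D14 differs from D0 by the surgery and by the infarct together. HCs were taken from digested hearts with magnetic beads against CD45, the surface protein of leukocytes, and RNA of 3 mice was pooled for a library, or of 2 where 1 was missing.

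MicroRNAs are short RNAs cut from hairpin precursors. Each hairpin can release a 5p and a 3p arm, and the seed near the 5′ end of an arm pairs with target mRNAs, so miRNAs with the same seed can share targets. After an infarct, neutrophils and inflammatory monocytes enter the heart first, and macrophages and lymphocytes take part in the later repair and scar formation. A CD45 selection therefore holds a changing mixture of leukocytes, along with RNA of any other cells that came through the beads. In bulk libraries, fewer cells of a type and less RNA of a miRNA per cell cannot be told apart.

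The mature sequences of miRNAs that carry the results are given below as RefSeq lists them on GRCm38.p6, in the 5′ to 3′ direction with the seed, bases 2 to 8, in capitals. The first group shows rises, among them 2 miR-34 arms with a common seed, and miR-199a and miR-214 of 1 transcript. The second shows falls, with pairs that share a seed (miR-204 and miR-211, miR-30a and miR-30e, miR-99a and miR-100).

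miR-21a-5p: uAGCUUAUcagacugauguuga

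miR-34a-5p: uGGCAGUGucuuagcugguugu

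miR-34b-5p: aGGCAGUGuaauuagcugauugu

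miR-199a-5p: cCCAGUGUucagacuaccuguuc

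miR-214-3p: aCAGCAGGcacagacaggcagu

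miR-126a-3p: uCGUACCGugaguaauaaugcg

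miR-149-5p: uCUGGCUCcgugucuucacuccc

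miR-204-5p: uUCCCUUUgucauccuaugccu

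miR-211-5p: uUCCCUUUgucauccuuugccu

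miR-30a-5p: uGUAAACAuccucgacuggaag

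miR-30e-5p: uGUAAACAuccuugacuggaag

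miR-99a-5p: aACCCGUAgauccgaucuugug

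miR-100-5p: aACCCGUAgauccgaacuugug

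miR-21a-5p is read from chr11:86584120-86584141 (minus strand), miR-34a-5p from chr4:150068473-150068494 (plus) and miR-34b-5p from chr9:51103610-51103632 (minus). miR-199a-5p has the same sequence at chr1:162217844-162217866 (plus) and chr9:21496537-21496559 (minus), and miR-214-3p lies at chr1:162223438-162223459 (plus). Of the falls, miR-126a-3p is at chr2:26591402-26591423 (plus), miR-149-5p at chr1:92850381-92850403 (plus), miR-204-5p at chr19:22750610-22750631 (plus) and miR-211-5p at chr7:64205831-64205852 (plus). miR-30a-5p is at chr1:23272274-23272295 (plus), miR-30e-5p at chr4:120772660-120772681 (minus), miR-99a-5p at chr16:77598940-77598961 (plus) and miR-100-5p at chr9:41531437-41531458 (plus).

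Depth and identity of the libraries were checked first. The 3 D0 libraries held 26449253 to 29504666 mature counts and the 4 D14 libraries 11853665 to 15402931, with 932 to 994 and 916 to 962 miRNAs detected. Reads with no match made up 34.3% to 39.6% of the D0 totals and 42.1% to 45.9% of the D14 totals. The leukocyte miRNAs miR-142a-3p and miR-223-3p bore out the label. At D0, miR-142a-3p averaged 3560 CPM (counts scaled by library size alone, as a rate per 1000000 mature counts) in HCs against 0.931 in CMs, 10.1 in ECs and 49.8 in FBs, and miR-223-3p averaged 747 in HCs against 0.550 in FBs. miR-150-5p, also picked as a leukocyte marker, did not set HCs apart from ECs, where it averaged 2372 CPM at D0 and 3085 at D14. Its HC means, on the TMM scale used below, were 3767 and 2598 CPM. The HC libraries also held much RNA of the miRNAs that define other heart cells. The muscle miRNA miR-1a-3p took 8.45% to 11.5% of the mature counts at D0 and 4.71% to 7.07% at D14, and the endothelial miR-126a-3p took 5.52% to 9.02% at D0 and 2.91% to 4.45% at D14. Both groups of libraries thus differed in how much of these miRNAs they carried, with no overlap between the days, and the part of this in the other results was not tested beyond the fits without those miRNAs given below.

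HCs at D14 differed from HCs at D0 in 175 of the 635 miRNAs tested, 27.6% of them, with an adjusted p under 0.05 in edgeR's quasi-likelihood test. Of these, 83 were higher at D14 (13.1%) and 92 were lower (14.5%). Among well-measured miRNAs the balance was different: of the 202 with a mean of at least 50 CPM, 16 were higher and 67 lower. The libraries of both days did not overlap for 262 miRNAs (41.3%), and 79 (12.4%) were called, did not overlap and reached 50 CPM. The fold was at least 2 up (a log2 fold change of at least 1) for 61 called miRNAs, and at most -1 on the log2 scale for 42.

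This split between rises and falls depended on the scaling. The values here use TMM factors, which were 0.751 to 0.783 for D0 and 0.973 to 1.04 for D14. When counts were scaled by library size alone, the median log2 fold change of the tested miRNAs moved from 0.02 to 0.41, and 198 miRNAs were higher and 46 lower. Without the erythroid miRNAs in the table, 140 were higher and 55 lower, and the median was 0.24. The erythroid list took only 0.13% to 0.168% of the mature counts at D0 and 0.0587% to 0.0828% at D14. The TMM scale thus moved when a few scarce miRNAs were left out, and the cause was not tested. Without the listed miRNAs of other cell types, a fit added after the data were seen, 113 were higher and 44 lower. Single libraries moved it as well: 54 were higher and 73 lower without D0 replicate 2, and 54 and 66 without D0 replicate 4. With all libraries thinned to the smallest, 47 were higher and 81 lower, of 459 that then passed the filter. All 83 rises were also called as rises with library size alone, with DESeq2 and without the erythroid miRNAs, whereas 46 of the 92 falls were called as falls in all of these. A fall of about 0.4 or less on the log2 scale thus has no fixed direction here, and 0 of the 175 miRNAs were called in the opposite direction under library size alone. Large changes moved as much. From TMM to library size alone, the log2 fold change of miR-34c-5p went from 1.60 to 2.00 and that of miR-126a-3p from -1.58 to -1.18. miR-208a-3p went from -1.09 to -0.69 and lost its call (adjusted p = 0.0873 by edgeR).

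**Figure D1:**
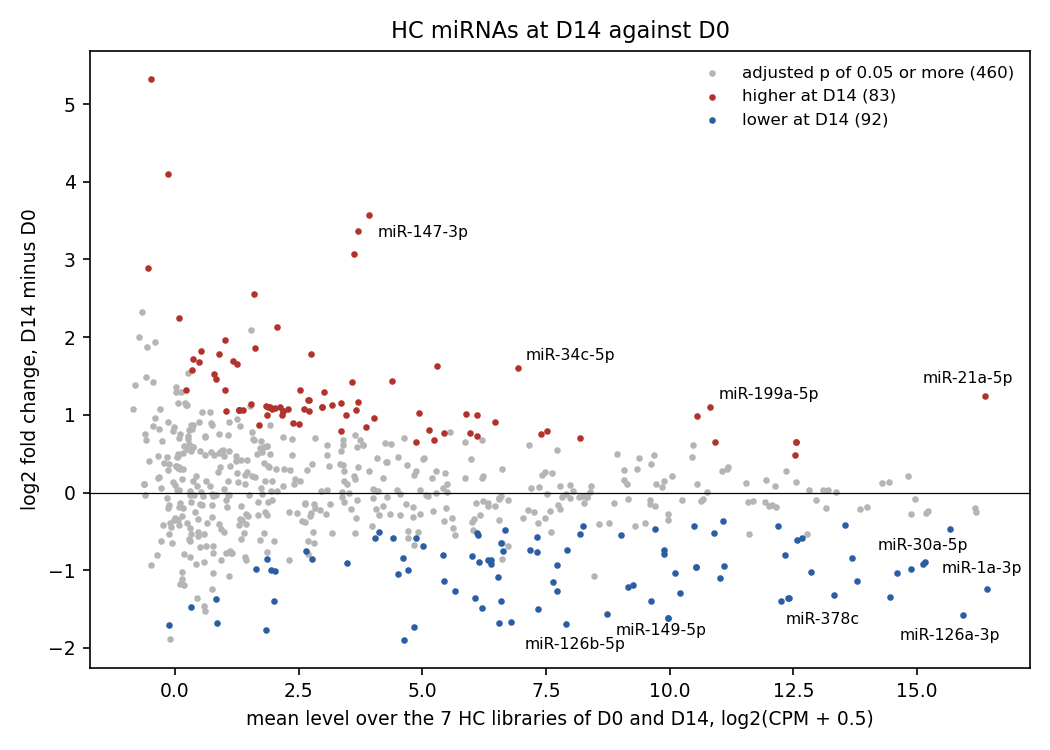
Each point is 1 of the 635 miRNAs tested, with its mean level in the 7 HC libraries of D0 and D14 on the x axis (log2 of CPM plus 0.5, TMM scale) and its log2 fold change, D14 minus D0, on the y axis. Red points (83) were higher and blue points (92) lower at an adjusted p under 0.05. Above the middle of the x axis most called points lie below 0, and miR-21a-5p stands out as a rise among the most abundant miRNAs, while points at the left edge rest on few counts.

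The leading rises were miR-34c-5p, miR-21a-5p, the miR-199 and miR-214 arms, miR-182-5p, miR-34a-5p and 3 miRNAs of the imprinted Dlk1-Dio3 region. They are the 10 largest rises among called miRNAs of at least 50 CPM whose days did not overlap. miR-34c-5p, of a family known as targets of p53, stood at 52.4, 53 and 63.1 CPM in the D0 libraries. It stood at 149, 175, 181 and 175 CPM in the D14 libraries. Every D14 library lay more than 2-fold above every D0 library. The log2 fold change was 1.60 (SE 0.20, adjusted p = 3.21e-06 by edgeR), or 3.03-fold.

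miR-21a-5p, one of the most studied miRNAs of cardiac injury and abundant in leukocytes, was among the most abundant miRNAs that rose. Its level was 42656, 48817 and 52187 CPM at D0. It was 104994, 126587, 111754 and 110249 CPM at D14. The D14 libraries clustered tightly and far above D0, and the share of all mature counts taken by this miRNA went from between 3.34% and 3.92% to between 10.2% and 13.1%. The log2 fold change was 1.24 (SE 0.17, adjusted p = 8.41e-06 by edgeR). Its hairpin (chr11:86584067-86584158) overlaps an exon of Vmp1. The rare other arm, miR-21a-3p, rose as well, from 5.83 ± 0.941 (SD, n = 3) to 15.6 ± 4.45 CPM (SD, n = 4), by 1.42 on the log2 scale.

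miR-199a-5p and miR-214-3p, both abundant in mesenchymal cells and fibroblasts, rose together. miR-199a-5p was at 1023, 1036 and 1230 CPM at D0 and at 2551, 1806, 2280 and 2751 CPM at D14. miR-214-3p was at 31.5, 37.5 and 42.5 CPM at D0 and at 83.5, 59.6, 68.3 and 87.7 CPM at D14. In both, D14 replicate 2 was the lowest of its day. The log2 fold changes were 1.10 (SE 0.22) and 1.01 (SE 0.23), with adjusted p = 0.000511 and 0.00181 by edgeR. Their hairpins Mir199a-2 (chr1:162217814-162217923) and Mir214 (chr1:162223368-162223477) lie in Dnm3os, which is antisense to an intron of Dnm3, and all 4 arms of this pair of hairpins that were tested rose. miR-199b-5p rose by 0.98 (SE 0.21).

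miR-182-5p, known for its rise in activated lymphocytes, was at 62.0, 28.9 and 39.3 CPM at D0 and at 84.8, 94.9, 79.7 and 88.6 CPM at D14. The D0 libraries spread widely and the lowest D14 library was not far above D0 replicate 1, so the log2 fold change of 1.00 has an SE of 0.25 (adjusted p = 0.00397 by edgeR). miR-34a-5p, the p53 target with the same seed as miR-34b-5p, was at 120.0, 128 and 138 CPM at D0 and at 204, 269.8, 237 and 176 CPM at D14. Its rise of 0.79 (SE 0.26, adjusted p = 0.0237) lost its call without any 1 of D0 replicates 1, 2 and 4 and D14 replicates 2 and 3, with adjusted p of up to 0.0839.

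**Figure D2:**
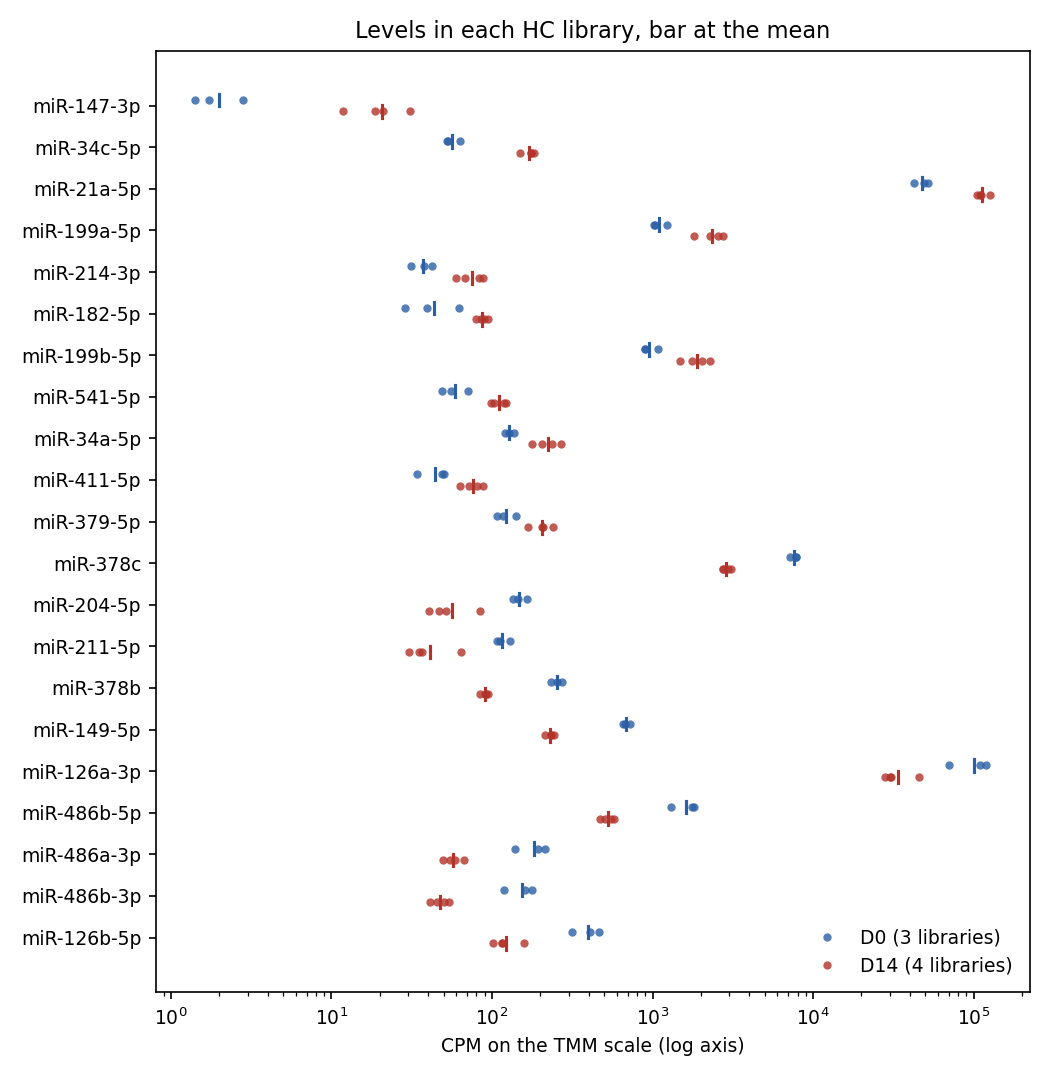
CPM on the TMM scale (log axis) of miR-147-3p, the 10 leading rises and the 10 leading falls in each HC library, with D0 in blue (3 points), D14 in red (4 points) and a bar at each mean. The 10 rises and 10 falls were picked for days that do not overlap, so their separation follows from that rule. D14 replicate 4 is the highest D14 point of miR-126a-3p, at 45719 CPM.

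The leading falls were arms of miR-126, miR-486, miR-149, miR-378, miR-204 and miR-211. miR-126a-3p, the defining miRNA of endothelial cells, was at 70506, 109986 and 120223 CPM at D0. It was at 30386, 28052, 30361 and 45719 CPM at D14. D0 replicate 1 was low for its day and D14 replicate 4 high. The log2 fold change was -1.58 (SE 0.22, adjusted p = 8.41e-06 by edgeR). The hairpin Mir126a (chr2:26591357-26591429) lies in Egfl7, and miR-126b is listed from the opposite strand of the same place: miR-126b-5p fell by 1.70 on the log2 scale (SE 0.23), and since the count of miR-126b-3p was nearly equal to that of miR-126a-5p (186698 and 186598 in all), its values are uncertain.

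miR-149-5p, encoded in an intron of Gpc1 (chr1:92850378-92850443), was at 675, 719.9 and 655 CPM at D0 and at 233, 214, 244 and 232 CPM at D14. Its levels were even within each day, and the log2 fold change was -1.57 (SE 0.20, adjusted p = 3.21e-06 by edgeR). miR-486a-5p and miR-486b-5p, abundant in red blood cells and muscle, were listed with identical counts and were taken as 1. They were at 1297, 1763 and 1801 CPM at D0 and at 473, 555, 572 and 506 CPM at D14, a log2 fold change of -1.62 (SE 0.24, adjusted p = 2.05e-05).

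miR-204-5p and miR-211-5p share the seed UCCCUUU and lie in introns of Trpm3 (chr19:22750605-22750672) and Trpm1 (chr7:64205806-64205911). miR-204-5p was at 134, 145 and 164 CPM at D0 and at 47.1, 40.5, 51.8 and 84.7 CPM at D14. miR-211-5p was at 107, 111 and 129 CPM at D0 and at 35.1, 30.3, 36.4 and 63.7 CPM at D14. Both were highest in D14 replicate 4 among the D14 libraries, and they fell by 1.40 (SE 0.25) and 1.48 (SE 0.27) on the log2 scale. The mature arms are nearly identical, so the division of counts between them is uncertain. The metabolic miRNAs miR-378c and miR-378b, abundant in muscle, fell by 1.40 (SE 0.15) and 1.49 (SE 0.17), from 7588 ± 385 to 2880 ± 163 CPM (SD, n = 3 and 4) for miR-378c. The count of miR-378c over the libraries was close to that of miR-378a-3p (634124 and 695991), so the family was taken as poorly resolved.

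Of these 20 leading rises and falls, 17 kept their call in all alternatives run for them. The other 3 were miR-34a-5p, miR-379-5p and miR-411-5p, whose calls were lost when single libraries were left out, for miR-379-5p also D0 replicate 2 and D14 replicate 1. Without D0 replicate 1, adjusted p was 0.0818 for miR-379-5p and 0.0857 for miR-411-5p.

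Of the 8 most abundant miRNAs in the HC libraries, let-7a-5p, let-7f-5p, let-7g-5p and miR-146a-5p did not pass the test. let-7a-5p averaged 82843 ± 4846 CPM at D0 and 69819 ± 3247 at D14 (SD, n = 3 and 4), a log2 fold change of -0.25 (SE 0.13, adjusted p = 0.174), and let-7f-5p and let-7g-5p were alike at -0.20 and -0.26. miR-146a-5p, a brake on Toll-like receptor signaling, stood at 41953 ± 4582 and 35647 ± 10144 CPM, with overlapping libraries and adjusted p = 0.33. miR-1a-3p, the main miRNA of cardiac muscle, was the most abundant of all at D0. It was at 146326, 133654 and 112530 CPM at D0 and at 54090, 50147, 67788 and 48390 CPM at D14, and fell by 1.25 (SE 0.21, adjusted p = 6.78e-05 by edgeR). miR-26a-5p fell by 0.47 (SE 0.11), but by 0.08 with library size alone (adjusted p = 0.507).

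Of 6 pan-leukocyte and myeloid arms, both miR-21a arms rose and 0 fell, beside rises in 13.1% of all tested, and the list median was 0.45 against 0.02 for all 635 tested. All list counts here and below stand beside 13.1% higher and 14.5% lower among all tested. With library size alone, they stand beside 198 higher and 46 lower of 635. miR-142a-3p, made by all blood lineages, was at 4641 ± 634 CPM at D0 and 5641 ± 1207 at D14 (SD, n = 3 and 4), and miR-223-3p of neutrophils and monocytes was at 975 ± 80.5 and 1125 ± 90.1. Both overlapped between days (adjusted p = 0.43 and 0.382), and with library size alone 5 of the 6 were called higher. Of 8 lymphocyte arms, 0 were called in edgeR's test (median -0.31, with library size alone 0.09 and 2 higher). miR-150-5p of mature B and T cells was at 5136, 2934 and 3230 CPM at D0 and at 2285, 2193, 3014 and 2902 CPM at D14, so that the days overlapped.

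miR-147-3p, which macrophages induce on Toll-like receptor stimulation, had the largest rise of any member of the 16 lists. It was at 2.80, 1.42 and 1.72 CPM at D0 and at 18.6, 30.8, 20.9 and 11.8 CPM at D14. The lowest D14 library was over 4-fold above the highest D0 library, and the log2 fold change was 3.37 (SE 0.33, adjusted p = 5.97e-08 by edgeR). The other arm, miR-147-5p, which was singled out after its values were seen, rose by 3.57 (SE 0.31). Of the 13 arms in the list of inflammation and endotoxin responses, 1 rose, miR-147-3p, and miR-9-5p (-0.55, SE 0.15) and miR-187-3p (-1.27, SE 0.19) fell (list median -0.07). With library size alone 3 of the 13 rose and 1 fell (median 0.33), and miR-9-5p lost its call (-0.15, adjusted p = 0.447 by edgeR). miR-155-5p, induced in activated macrophages and lymphocytes, was at 405, 133 and 163 CPM at D0 and at 159, 160.1, 197 and 142 CPM at D14. D0 replicate 1 was far above the rest, the days overlapped and adjusted p was 0.246.

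In the list of hypoxia, p53 and stress miRNAs, 6 of 7 arms tested rose and 0 fell, beside rises in 13.1% of all tested. The median was 1.11, and the count stayed at 6 with library size alone. All risers but miR-210-3p were miR-34 arms. On the days outside the contrast, 4 of the 6 had their highest level in FBs, 2 in CMs and 0 in HCs, on the TMM scale. miR-34b-5p was at 18.2, 19.4 and 15.1 CPM at D0 and at 48.5, 53.9, 61.8 and 53.5 CPM at D14, and rose by 1.63 (SE 0.26, adjusted p = 3.11e-05 by edgeR). miR-34b-3p, miR-34c-3p and miR-34a-5p rose too, but each of these calls was lost when single libraries were left out. miR-210-3p, the best known hypoxia miRNA, rose from 49.5 ± 1.75 to 81.8 ± 13.8 CPM (SD, n = 3 and 4) by 0.72 (SE 0.23, adjusted p = 0.0232), a call that was lost without any 1 of D0 replicates 1, 2 and 4 and D14 replicates 2 and 4 (adjusted p of up to 0.0706).

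Of 28 tested miRNAs of the Dlk1-Dio3 imprinted cluster, 18 rose and 0 fell (median 0.90), beside rises in 13.1% of all tested. With library size alone 24 rose (median 1.30), beside 198 of all 635. In the genome, the 34 tested miRNAs of the run of hairpins at chr12:109709060-109747960 held 17 rises, and the 12 of the neighboring run at chr12:109563692-109595388 held 6. Its best measured risers were miR-541-5p, at 48.6, 55.7 and 71.3 CPM at D0 and at 118, 102, 98.6 and 122 CPM at D14 (0.91, SE 0.24), and miR-379-5p, from 122 ± 16.7 to 205 ± 30.1 CPM. miR-382-5p, at 9.27, 10.5 and 11.5 CPM at D0 and at 30.2, 26.9, 23.7 and 31.6 CPM at D14, rose by 1.43 (SE 0.26, adjusted p = 0.000154 by edgeR). miR-127-3p, the most abundant member, was at 394 ± 64.0 and 556 ± 55.9 CPM and missed the threshold (0.50, adjusted p = 0.0984), which it passed with library size alone (0.89, adjusted p = 0.00259 by edgeR).

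The rodent cluster in an intron of Sfmbt2 gave 7 rises and 0 falls among 19 tested (median 0.67), or 14 rises with library size alone (median 1.07). All its risers were scarce, such as miR-467e-5p at 6.90 ± 0.721 and 11.9 ± 2.63 CPM (0.79, SE 0.28) and miR-466a-3p at 2.52 ± 0.295 and 5.23 ± 0.949 CPM (1.05, SE 0.34). Each of the 7 lost its call in some alternative: miR-467a-3p and miR-467e-3p with thinned counts, and the others when single libraries were left out. Members of this family differ by few bases, so their counts may be split among copies. In the miR-17-92 and paralog clusters, known to drive proliferation of immune cells, miR-18a-5p rose (0.67, SE 0.23) and the other 15 of 16 were not called (median 0.32), although 9 were called higher with library size alone. miR-221-3p and miR-222-3p, which share a seed and target the cell cycle inhibitor p27, rose by 0.65 and 0.70 (SE 0.14 for both). miR-222-3p was at 218, 217 and 212 CPM at D0 and at 359, 353, 365 and 321 CPM at D14, with even levels on each day.

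**Figure D3:**
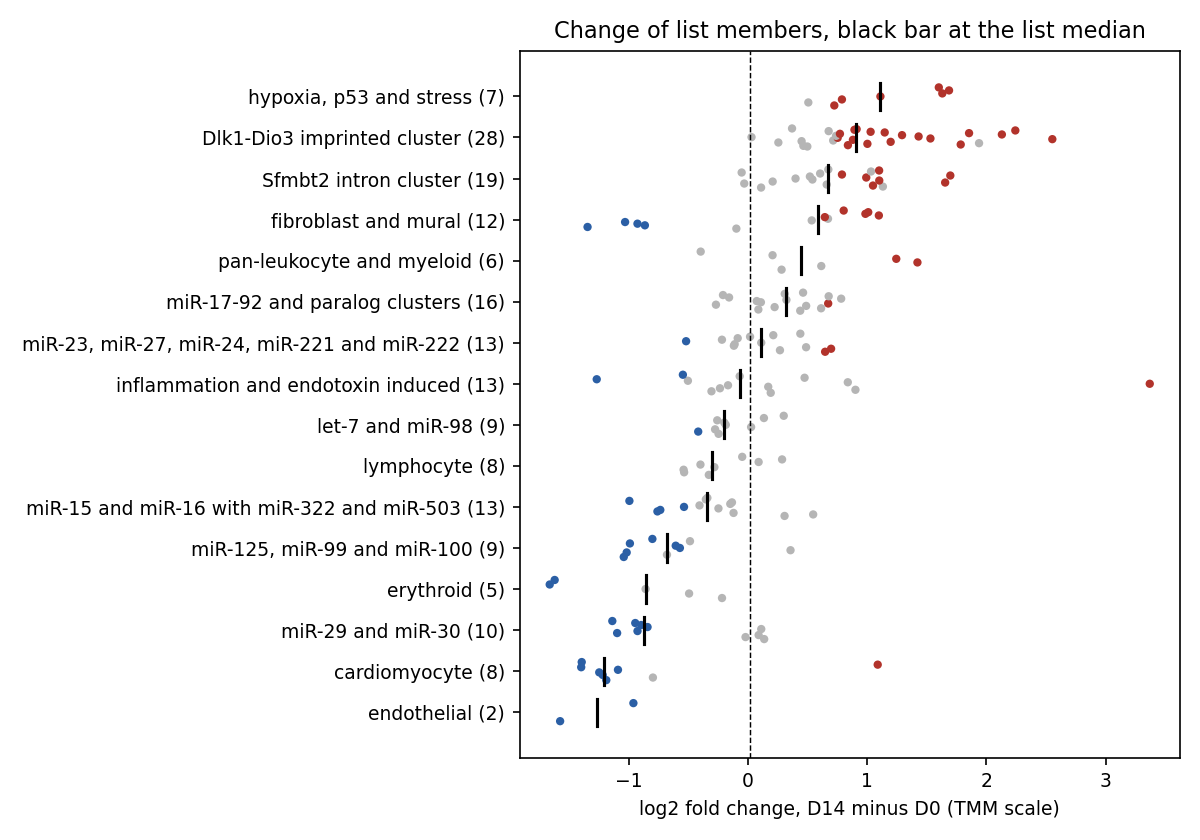
Log2 fold change, D14 minus D0 on the TMM scale, of each tested member of 16 miRNA lists (number tested in parentheses), with red for higher, blue for lower, gray for not called, a black bar at the list median and a dashed line at the median of all tested, 0.02. The hypoxia, p53 and stress list and the Dlk1-Dio3 cluster lie to the right (medians 1.11 and 0.90) and the cardiomyocyte and endothelial lists to the left (medians -1.20 and -1.27).

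All 6 falls in the list of miR-29 and miR-30 arms were miR-30 arms, and 0 of its 10 members rose (median -0.87). miR-30a-5p, abundant in many tissues and known to repress autophagy genes, was at 47323, 49365 and 50792 CPM at D0. It was at 27413, 26580 and 21480 CPM in D14 replicates 1 to 3 and at 27969 CPM in replicate 4. The log2 fold change was -0.93 (SE 0.15, adjusted p = 3.76e-05 by edgeR) and -0.53 with library size alone, still past the threshold. The 3 tested miRNAs whose matched RefSeq sequence holds the seed GUAAACA (miR-30a-5p, miR-30c-5p and miR-30e-5p) fell. Of the listed miR-30 5p arms outside these, miR-30d-5p fell and miR-30b-5p was not called. miR-29c-3p, known to repress collagen genes, was at 4307 ± 105 and 4582 ± 155 CPM and was not called (0.09, adjusted p = 0.734). With library size alone it was called higher (0.49, adjusted p = 0.0389 by edgeR), and the list held 2 rises and 6 falls (median -0.48).

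The miR-99 and miR-100 family with the seed ACCCGUA fell in all 3 members tested, and miR-125a-5p, miR-125b-5p and miR-351-5p with the seed CCCUGAG fell in all 3. With library size alone miR-99b-5p (-0.41), miR-125b-5p (-0.22) and miR-351-5p (-0.14) lost their calls, with adjusted p of 0.0965, 0.345 and 0.506 by edgeR. miR-99a-5p went from 41907 ± 1950 to 21094 ± 4394 CPM (SD, n = 3 and 4; -0.99, SE 0.18, adjusted p = 0.000254 by edgeR). miR-100-5p was at 32965, 35902 and 36321 CPM at D0 and at 21731, 15275, 12993 and 18119 CPM at D14. It fell by 1.04 (SE 0.20), and D14 replicate 1 was the highest of its day for both. In the list of miR-125, miR-99 and miR-100 arms, 6 of 9 fell (median -0.68), beside 14.5% of all tested, but with library size alone 3 fell and 1 rose. Of 9 let-7 and miR-98 arms, let-7b-5p fell (-0.42, adjusted p = 0.0376 by edgeR) and 0 rose. With library size alone 3 of the 9 rose and 0 fell, beside 198 rises and 46 falls among all 635 tested. In the list of miR-15 and miR-16 with miR-322 and miR-503, 4 of 13 fell (median -0.34, or 0.06 with library size alone, where 1 fell and 1 rose). The 13 tested arms at chrX:53047997-53054349, which hold miR-322, miR-503 and miR-351, also had 4 falls. In the list of miR-23, miR-27, miR-24, miR-221 and miR-222, 2 of 13 rose and miR-24-2-5p fell (median 0.11). With library size alone 8 rose and 0 fell (median 0.51), and miR-24-2-5p lost its call (-0.12, adjusted p = 0.589 by edgeR).

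The lists of other cell types moved as follows. Of 8 cardiomyocyte arms, 6 fell, beside 14.5% of all tested, with a median of -1.20. With library size alone 5 fell (median -0.81). The counts of miR-133a-3p and miR-133b-3p were close (78071 and 72319 in all), so their falls may rest on shared reads. The list's share of mature counts was 8.63% to 11.7% at D0 and 4.83% to 7.24% at D14. Both endothelial arms of miR-126a fell (share 5.67% to 9.18% at D0 and 3.00% to 4.58% at D14). Of 5 erythroid arms, both miR-486a arms fell (median -0.86), while miR-451a, the defining miRNA of red blood cells, was at 130 ± 55.1 and 71.9 ± 32.8 CPM with overlapping libraries. The fibroblast and mural list split: 5 of 12 rose, the miR-199a, miR-199b and miR-214 arms, and 4 fell, the miR-143 and miR-145a arms of smooth muscle. With library size alone 7 of this list rose and 3 fell. miR-143-3p was at 26286, 40859 and 35416 CPM at D0 and at 13778, 9992, 14890 and 15148 CPM at D14 (-1.35, SE 0.21, adjusted p = 2.70e-05 by edgeR). No defining marker of these lists was at 0 on either day. miR-208b-3p, encoded in the fetal myosin gene Myh7 and known to rise in stressed heart muscle, was the 1 cardiomyocyte arm that rose. It was at 1.54, 2.70 and 2.21 CPM at D0 and at 6.39, 3.58, 5.48 and 2.86 CPM at D14, close enough that the call (1.09, SE 0.37, adjusted p = 0.0292) was lost with thinned counts and without any 1 of D0 replicates 1 and 4 and D14 replicates 1 and 3 (up to 0.12).

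Several called list members near the threshold rested on single libraries. Without D0 replicate 4 or D14 replicate 4, adjusted p of miR-199a-3p was 0.0525 to 0.0533. miR-34b-3p lost its call without any 1 of D0 replicates 2 and 4 and D14 replicate 4 (up to 0.0707), and miR-34c-3p without any 1 of D0 replicates 1 and 4 and D14 replicate 2 (up to 0.0827). The rises of miR-18a-5p (D0 replicates 1 and 2 and D14 replicate 2, up to 0.11) and miR-466a-3p (D0 replicates 2 and 4 and D14 replicate 2, up to 0.093) behaved alike, as did that of miR-467e-5p (all 3 D0 libraries and D14 replicates 1 and 3, up to 0.126). Among falls, let-7b-5p (up to 0.167) and miR-351-5p (up to 0.0954) lost the call without any 1 of D0 replicates 2 and 4 and D14 replicates 1, 2 and 3. miR-125b-5p lost it without any 1 of D0 replicates 2 and 4 and D14 replicates 2 and 3 (up to 0.085), and miR-24-2-5p without any 1 of D0 replicates 2 and 4 and D14 replicate 3 (up to 0.152).

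To place the 175 miRNAs among the cell types of the heart, the mean level on the days outside the contrast (D1, D3, D7 and D28) was compared between HCs, FBs, ECs and CMs. Of the 83 higher miRNAs, 40 (48.2%) had their highest level in FBs and 34 (41.0%) in HCs, against 131 (20.6%) and 241 (38.0%) of all 635. Of the 92 lower miRNAs, 50 (54.3%) were highest in CMs, 23 (25.0%) in ECs and 3 (3.26%) in HCs, against 163 (25.7%), 100 (15.7%) and 241 of all. By library size alone the background moved to 354 of 635 highest in HCs (55.7%), 130 in FBs (20.5%), 86 in ECs (13.5%) and 65 in CMs (10.2%). On that scale FBs held 41 of the rises (49.4%) and HCs 40 (48.2%, below their share of all tested), and of the falls ECs held 33 (35.9%), CMs 25 (27.2%) and HCs 15 (16.3%). These are descriptions of levels, and genes of 1 cluster are not independent.

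**Figure D4:**
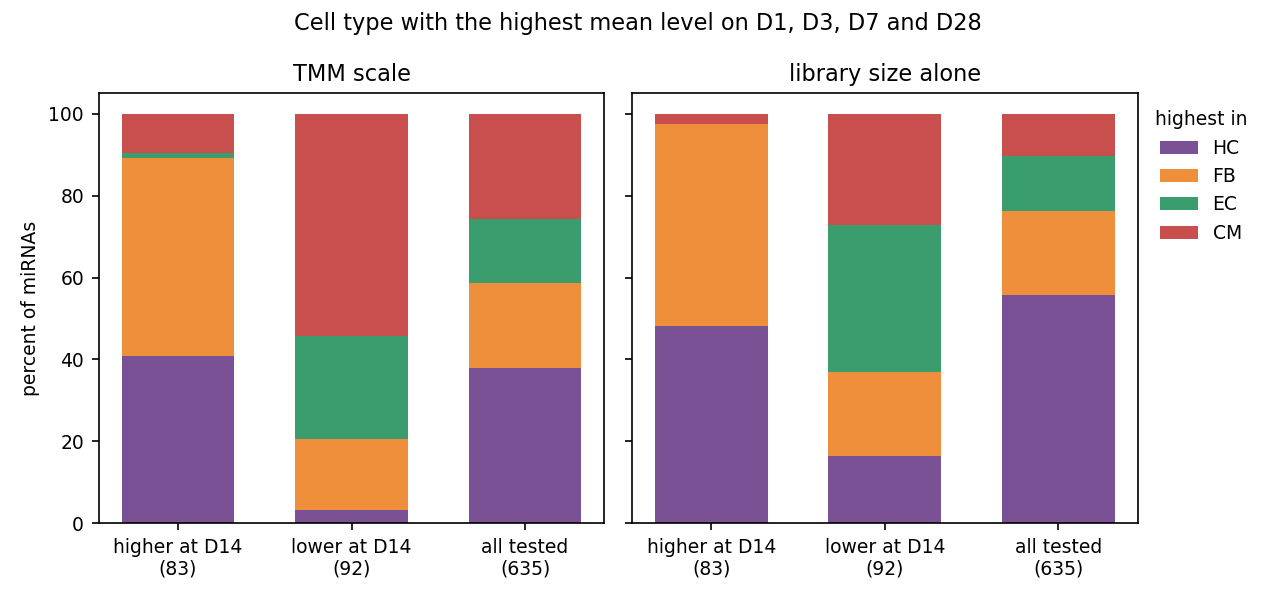
Percent of the 83 higher, 92 lower and all 635 tested miRNAs whose mean level on D1, D3, D7 and D28 was highest in HCs, FBs, ECs or CMs, on the TMM scale (left) and by library size alone (right). On the TMM scale 48.2% of rises were highest in FBs, against 20.6% of all tested, and 54.3% of falls were highest in CMs, against 25.7%.

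The CPM in this paragraph use TMM factors over all kept libraries of all cell types. They are thus on another scale than the CPM of the fit of HCs alone given elsewhere. Among single miRNAs, miR-34c-5p averaged 1259 CPM in FBs on those days against 69.9 in HCs, and miR-199a-5p averaged 14376 against 819. All 28 tested Dlk1-Dio3 miRNAs were highest in FBs, miR-541-5p with 1089 CPM against 42.4 in HCs. miR-21a-5p was instead highest in HCs (59039 CPM, against 28763 in FBs), as was miR-147-3p (17.9, against 12.5 in ECs), and so were 18 of 19 tested miRNAs of the Sfmbt2 cluster. Of the falls, miR-149-5p and miR-378c were highest in CMs (2539 and 46138 CPM, against 163 and 1267 in HCs), and miR-126a-3p and miR-204-5p in ECs (164014 and 427, against 13584 and 20.2). All 10 tested arms of miR-29 and miR-30 were highest in CMs. These placements of single miRNAs and lists are on the TMM scale only. By library size alone fewer of all 635 tested were highest in CMs (65 against 163), so the scaling can move them. The part of FB, EC and CM RNA in the HC changes was not tested.

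The 6 days of the HC series show where D14 stands. Of the 83 higher miRNAs, D3 held the highest mean of 26, D28 of 20, D7 of 17, D1 of 13 and D14 of 7. Over all 635 tested, the same days held the highest mean of 178, 85, 90, 103 and 20, and D0 of 159. Of the 92 lower ones, 61 had their lowest mean at D3 and 5 at D14, so most falls were less deep at D14 than they had been. Of all 635 tested, 137 had their lowest mean at D3 and 54 at D14. In the same fit, 328 miRNAs (51.7%) were called for D1 against D0, 373 (58.7%) for D3, 292 (46%) for D7 and 130 (20.5%) for D28, beside the 175 of D14. These comparisons share the D0 libraries.

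miR-34c-5p averaged 56.1, 56.8, 84.4, 141, 170.3 and 238 CPM from D0 to D28. miR-21a-5p averaged 47887, 76203, 130757, 138588, 113396 and 90339 CPM. miR-147-3p averaged 1.98, 40.5, 49.7, 33.8, 20.5 and 6.76 CPM. The first was highest at D28, the second at D7 and the last at D3. miR-199a-5p was lower at D1 than at D0 (566 and 1097 CPM) before it reached 2347 at D14 and 3757 at D28. miR-126a-3p had its lowest mean at D3 (16249 CPM), and miR-149-5p at D7 (186 CPM).

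**Figure D5:**
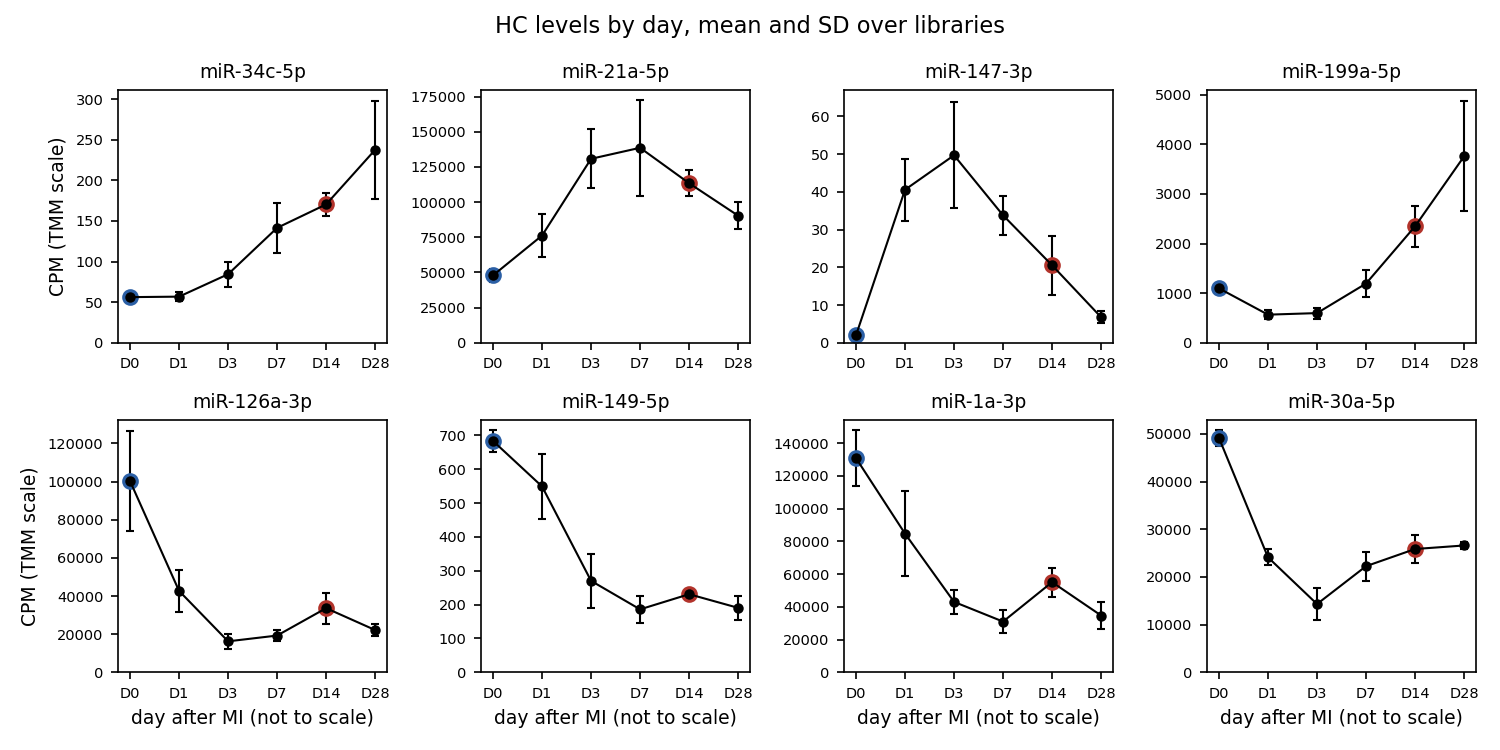
Mean CPM (TMM scale, bars are SD over 3 libraries at D0 and 4 on other days) of 8 miRNAs in HCs from D0 to D28, with D0 marked blue and D14 red, on axes that start at 0. miR-34c-5p and miR-199a-5p have their highest mean at D28, miR-21a-5p at D7 and miR-147-3p at D3, and the 4 miRNAs of the lower row stay below their D0 mean on each later day.

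D28 differed from D14 in 31 of 635 miRNAs (4.88%), 14 higher (2.2%) and 17 lower (2.68%) at D28. miR-147-3p fell further by 1.59 on the log2 scale (adjusted p = 0.00199 by edgeR), and miR-182-5p, miR-1a-3p and miR-143-3p fell by 0.81, 0.67 and 0.71. miR-199a-5p and miR-125b-5p were higher at D28 by 0.68 and 0.89. These counts rest on single libraries: 3 miRNAs were called without D14 replicate 3 and 5 without D28 replicate 4.

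The D14 change of HCs was set against that of FBs, the cells that build the scar, in 1 fit of both cell types with a term for the difference. CPM in this paragraph use the TMM factors of that fit, so HC values differ from those of the fit of HCs alone. Of 716 miRNAs tested, the change differed in 93 (13%), more positive in HCs for 30 (4.19%) and more negative for 63 (8.8%). With library size alone it differed in 153, 111 of them more positive in HCs. The 30 more positive differences became 16 without FB D0 replicate 4 (88 more negative), 17 without FB D0 replicate 3 or FB D14 replicate 1, 18 without HC D14 replicate 3 and 20 without HC D14 replicate 2. With all 48 libraries of both cell types 51 were more positive and 45 more negative. miR-155-5p had the largest difference below 0: it went from 8.38 to 61.5 CPM in FBs (log2 fold change 2.79) and from 189 to 140.1 CPM in HCs (-0.43), a difference of -3.22 (SE 0.42, adjusted p = 9.25e-07 by edgeR). miR-182-5p rose in both but more in FBs (3.90 against 1.07), and the muscle miRNA miR-206-3p moved in opposite directions (1.48 in FBs and -1.31 in HCs). On the other side, miR-142a-5p was lower in FBs at D14 (-1.85) and at 0.66 in HCs, a difference of 2.51 (SE 0.55). The log2 fold changes of miR-29b-3p and miR-15a-5p were -2.18 and -1.83 in FBs and 0.02 and 0.35 in HCs, differences whose calls were lost when single libraries were left out.

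Several leading members were not shown to differ between the cell types. The difference was 0.64 (SE 0.33, adjusted p = 0.206 by edgeR) for miR-34c-5p, -0.54 (SE 0.31) for miR-21a-5p and 0.58 (SE 0.30) for miR-199a-5p. The falls of miR-149-5p (-1.74, SE 0.30, adjusted p = 4.09e-05), miR-126a-3p (-1.75, SE 0.36) and miR-204-5p (-1.64, SE 0.40) in HCs did differ from FBs, where these 3 changed by 0.22, 0.22 and 0.29. The rise of miR-147-3p was larger in HCs (3.43 against 1.37, a difference of 2.06, SE 0.54, adjusted p = 0.00628). Among Dlk1-Dio3 miRNAs, miR-369-3p and miR-410-3p rose more in HCs (differences 2.40 and 2.15), whereas miR-379-5p did not pass (0.18, SE 0.34).

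Both arms of a hairpin moved apart in few cases. Of 158 hairpins with both arms measured, the log2 ratio of the 5p to the 3p count changed in 8 (5.06%) by limma, 4 up and 4 down (2.53% each). For miR-199a, the ratio was -2.21, -2.11 and -1.84 at D0 and -1.55, -1.57, -1.64 and -1.62 at D14, a change of 0.46 (SE 0.13, adjusted p = 0.0467). Since miR-199a-3p was listed with counts identical to those of miR-199b-3p, this 3p count cannot be assigned to 1 hairpin. For miR-18a it was 2.30, 2.40 and 2.25 at D0 and 3.18, 3.39, 3.18 and 3.23 at D14, a change of 0.93 (SE 0.25, adjusted p = 0.0375), on 53 to 148 counts of the 3p arm. For miR-29c, which is almost all 3p arm, the change was -0.63 (SE 0.18, adjusted p = 0.0467). With at least 50 counts required on each arm, 0 hairpins were called by limma (21 at an unadjusted p under 0.05), and 0 were called without D0 replicate 4, D14 replicate 2 or D14 replicate 3.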

How the data were processed

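The authors trimmed adaptors with Trim Galore, removed reads under 18 nt, aligned the rest through nf-core's small RNA pipeline (Bowtie2 and SAMtools per the labels) to mature miRBase v21 sequences, and deposited the alignments per miRNA as raw counts. Aligner settings are not given in the sources used here, and how reads that match several miRNAs were counted is not shown: 132 mature miRNAs, in 40 sets, had counts identical to another in HCs. Hairpin tables were not used. The line of unmatched reads, 34.3% to 45.9% of the totals in these 7 libraries, entered neither library sizes nor tests. Input was 150 ng of RNA and 15 PCR cycles, and PCR copies were not removed.

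Groups came from the labels, which give no batch. The 23 kept HC libraries were fitted together by day with edgeR 4.0.16 in R 4.3.3 (filterByExpr, TMM, quasi-likelihood test, Benjamini-Hochberg over all tested, threshold 0.05), and each contrast was taken from that fit. CPM and SD use the TMM scale unless stated. FB libraries were added for the difference between cell types. Arm ratios, log2 of (5p + 0.5) over (3p + 0.5) counts for hairpins with a mean of 10 counts on each arm, were tested with limma 3.58.1. DESeq2 1.42.0 was an alternative. Highest cell types used TMM factors over all kept libraries. The minimum of 100000 counts per library was taken from the rule that defines the comparison. Replicate libraries of a day differed by far more than sampling noise, and no pair was counted as 1. Labels call them biological replicates of pooled mice, so p-values measure the spread between pools.

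The miRNAs, lists and rules were chosen with earlier results of these data known. Named are the 10 largest rises and falls that passed the test with at least 50 CPM and no overlap of days, the 8 most abundant miRNAs, up to 4 members of a list and its called members, other arms, neighbors and seed mates, 3 arm ratios, and the 3 largest differences from FBs at each end. RefSeq mature sequences were matched for 515 of the 635 tested, and hosts were taken from GENCODE M21. The tests were tried on simulated data. At a true log2 change of 1 the D14 comparison recovered 62.6% of changed miRNAs and at 2 it recovered 90.9%. Of its calls 2.56% were false, over 623 miRNAs. For arm ratios, 70.0% of changes of 1.5 were recovered with 8.70% of calls false. These rates describe the simulated data only. Of the 92 measured falls, 46 were also called as falls with library size alone. Whether the rate of 2.56% holds for the measured calls, which depended on the scaling, was not tested. Alternatives were library size alone, DESeq2, no filter, other sets of libraries, thinned counts, a replicate block, tables without listed miRNAs and each library left out.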

Additional observations from a re-analysis of the deposited data

Results flagged for a closer look

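Of 125 named miRNAs checked, 4 had 1 library far from the other 3 of D14, and it was replicate 4 each time. Chance flags about 1 in 20 groups. miR-126a-3p was at 45719 CPM in that library, against 28052 to 30386 in the others. miR-34b-3p was at 6.04 CPM there, against 3.22 to 3.53, miR-322-3p at 257 CPM, against 159.7 to 170.5, and miR-351-5p at 312 CPM, against 212 to 224. The fall of miR-126a-3p kept its call without this library, and the calls of miR-34b-3p and miR-351-5p were among those lost when single libraries were left out.

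For 6 miRNAs the D14 change differed between HCs and FBs by the interaction test in edgeR, and they were picked as the extremes at each end. HCs minus FBs was -3.22 for miR-155-5p, -2.83 for miR-182-5p and -2.80 for miR-206-3p. It was 2.18 for miR-15a-5p, 2.20 for miR-29b-3p and 2.51 for miR-142a-5p. The calls of miR-15a-5p and miR-29b-3p were lost when the D0 library of 18286 counts was kept. That of miR-15a-5p was also lost without any 1 of HC D14 replicate 2, FB D0 replicate 3 and FB D14 replicate 1 (adjusted p of 0.0545 to 0.0766 by edgeR). That of miR-29b-3p was lost without any 1 of HC D0 replicates 1 and 2, HC D14 replicates 2 and 3, FB D0 replicates 3 and 4 and FB D14 replicates 1 and 3 (0.0501 to 0.104).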

How the results depend on the processing

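The total D14 count of 175, of 635 tested, stayed within 1.5 times in all alternatives. Its rises and falls moved by more (47 to 198 rises, 44 to 108 falls). Of 635 tested, 244 were called with library size alone, 195 with DESeq2 and 120 to 166 with 1 library left out. Other settings changed the number tested. The calls were 163 of 1435 with no filter and 223 of 564 with both days alone. They were 171 of 608 with all 24 HC libraries and 128 of 459 with counts thinned to the smallest library. For D28 against D14, the 31 calls of 635 became 54 with DESeq2 and 3 to 23 with 1 library left out. They became 54 of 1435 with no filter, 56 of 538 with both days alone and 13 of 608 with all 24 libraries. Thinned counts gave 19 of 459, and the table without the miRNAs of other cell types 13 of 607. The 93 differences between HCs and FBs became 153 with library size alone (76 to 119 with 1 library left out). The 8 arm ratios became 0 by limma with at least 50 counts per arm (21 at an unadjusted p under 0.05; fewer hairpins tested), 0 with all 24 libraries (28 unadjusted) and 3 with both days alone (0 to 8 with 1 library left out). The cause was not tested. With the replicate number as a block, the D14 count was 172. The numbers do not pair the libraries: deviations of equal numbers correlated at -0.18, 0.06 and 0.09. Of the named single results called in the main fit, 0 changed sign in an alternative. Results not called there could change sign. With library size alone, miR-27a-3p went from -0.09 to 0.31 (adjusted p = 0.0384 by edgeR) and let-7a-5p from -0.25 to 0.15.

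The limits are 3 D0 libraries, their greater depth, and single replicates that decide the D28 and arm results. A further limit is the scaling, which moves small and large changes alike by about 0.4 on the log2 scale.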

Other observations

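Some scarce miRNAs outside the lists were singled out after their values were seen. Among falls, miR-504-5p was at 35.7, 45.7 and 44.2 CPM at D0 and at 9.32, 8.95, 14.3 and 12.4 CPM at D14, the lowest log2 fold change of any called miRNA (-1.90, SE 0.27, adjusted p = 8.41e-06 by edgeR). miR-490-3p, known from smooth muscle, was at 30.6, 50.8 and 57.9 CPM at D0 and at 14.8, 12.5, 15.5 and 13.1 CPM at D14 (-1.73, SE 0.22). The days lay apart for both.

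miR-21b, whose sequence is close to that of miR-21a-5p, was at 2.56, 2.65 and 1.49 CPM at D0. It was at 32.0 and 34.1 CPM in D14 replicates 1 and 2 and at 4.99 and 4.08 CPM in replicates 3 and 4. The D14 libraries thus fell into a high and a low pair, unlike those of miR-21a-5p, so that the log2 fold change of 3.07 has an SE of 0.65 (adjusted p = 0.00103 by edgeR).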
